A study of Mus musculus with 7 samples.

Results

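The 39 imprinted genes described here were fixed by name: each row of the count table whose symbol, joined on the Ensembl gene ID, was one of the 39 was taken, out of 47729 genes in the table. All 39 were found, and 37 had at least 10 counts in at least 3 libraries and were tested; the other 2, Calcr and Phlda2, stayed below that level. RNA was sequenced from the whole forebrain of mice at postnatal day 15. Control pools were Lhx6+/- (n = 4) and mutant pools Lhx6-/- (n = 3), both carrying the Lhx6tm2Vpa allele on an F1(C57BL/6 X 129Sv) background, so that control mice already lacked 1 functional copy of Lhx6. Each pool held 2 animals. No wild-type forebrain was part of the comparison, and the allele is carried by all cells of the animal. Control pools were of 1 sex each, whereas mutant pools were mixed or female, and the columns of the count table, which carry genotypes and numbers, cannot be tied to single pools. Controls are the libraries numbered 2, 3, 10 and 11 and mutants those numbered 5, 12 and 13, and values are listed in that order throughout.

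An imprinted gene is read mainly from 1 parental chromosome, either that from the father or that from the mother. The choice is set by DNA methylation that is laid down in the germ line at imprinting control regions and kept in the embryo by the zinc finger protein ZFP57 and its partners TRIM28 and SETDB1. Most imprinted genes lie in clusters in which a control region governs several genes at once, often together with a long noncoding RNA, and many are strongly expressed in the brain, where they act on growth, feeding, maternal behaviour and neuronal maturation. Expected counts here sum the reads of both parental copies of a gene, so the values below are total expression and say nothing about which parental copy was used.

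Libraries held between 32556304 and 38069151 expected counts, and the floor used for undetected genes was 3 counts, which is 0.0921 CPM in the smallest library and covers counting error only. Lhx6 itself had between 476 and 615 normalized counts (counts scaled to a common library size) in the 4 control libraries and between 70.1 and 76.6 in the 3 mutant libraries. Together the 39 genes took between 0.679% and 0.820% of all counts of a library, and Meg3 alone had more counts than any other of the 39. The first principal component of log2 CPM, with 39.6% of the variance, set libraries 2, 3 and 5 apart from libraries 10 to 13. What the numbers stand for is not given in the labels, so they are called runs of library numbers here, and genotype differences are also given for each run by itself, the first being libraries 2, 3 and 5 and the second libraries 10 to 13. The paper refers to the controls of this comparison as littermates of the mutants. The labels do not say which pools shared litters, so p-values measure the spread between pools.

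The sequences that the results refer to are shown first. The promoter windows are from RefSeq on GRCm38, which was also the build of the deposited annotation, and 31 of the 39 genes had a window. The first 3 are upstream stretches of genes whose mutant libraries all lay below the control libraries (Nap1l5, Rasgrf1 and Dio3), and the last is the whole stretch between the starts of Peg3 and Usp29, which run in opposite directions from it. The letters TGCCGC, the core of the site that ZFP57 binds when methylated, were searched on both strands, where the other strand reads GCGGCA, and are in capitals.
Nap1l5, 250 bases on the minus strand, chr6:58907127-58907376: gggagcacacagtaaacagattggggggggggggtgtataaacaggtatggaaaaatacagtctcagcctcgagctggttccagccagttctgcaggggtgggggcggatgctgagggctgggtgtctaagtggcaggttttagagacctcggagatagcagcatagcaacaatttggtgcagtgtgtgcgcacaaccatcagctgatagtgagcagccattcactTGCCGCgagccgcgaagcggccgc
Rasgrf1, 250 bases on the plus strand, chr9:89909525-89909774: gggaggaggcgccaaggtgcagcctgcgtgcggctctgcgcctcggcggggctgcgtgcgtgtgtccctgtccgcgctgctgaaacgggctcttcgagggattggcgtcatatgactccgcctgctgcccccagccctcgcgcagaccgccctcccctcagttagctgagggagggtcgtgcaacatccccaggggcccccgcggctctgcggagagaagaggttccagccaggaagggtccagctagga
Dio3, 88 bases on the plus strand, chr12:110278980-110279067: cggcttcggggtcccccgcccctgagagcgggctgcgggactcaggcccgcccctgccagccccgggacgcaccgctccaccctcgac
Peg3 and Usp29, 146 bases on the plus strand, chr7:6730432-6730577: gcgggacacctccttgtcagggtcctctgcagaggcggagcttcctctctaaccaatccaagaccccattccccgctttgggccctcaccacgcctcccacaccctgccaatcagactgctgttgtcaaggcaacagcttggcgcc
The stretch of Nap1l5, which also holds an exon of a noncoding transcript of Herc3, the gene in whose intron Nap1l5 lies, has 10 CpG dinucleotides and 1 TGCCGC. Those of Rasgrf1, Dio3 and the Peg3 and Usp29 pair have 21, 10 and 5 CpG and no match. Over the 45 windows of 300 bases that belong to the 31 genes, 12 windows (26.7%) in 11 genes held the letters, against 11.6% of all 32851 windows in the table, and the median number of CpG was 15 against 7. Overlapping windows of a gene were counted singly, among them the Mest windows starting at 30737800 and 30737803, both with the letters. A match is a description of the letters and not of a bound site.

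Mirg is a noncoding RNA of the Dlk1-Dio3 cluster on chromosome 12 whose body holds a run of microRNAs. Of the mature microRNAs of RefSeq, 26 lie between its annotated ends, 8 of them within its annotated exons. Of these 8, 4 are shown, together with miR-453 and miR-496a-5p, which are the only pair of the 26 with the same seed (bases 2 to 8, in capitals).
mmu-miR-134-5p: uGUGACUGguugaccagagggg
mmu-miR-377-3p: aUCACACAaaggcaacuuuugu
mmu-miR-410-3p: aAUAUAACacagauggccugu
mmu-miR-485-3p: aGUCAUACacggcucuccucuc
mmu-miR-453: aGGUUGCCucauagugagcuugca
mmu-miR-496a-5p: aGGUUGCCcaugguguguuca
The libraries were made from long RNA, and the microRNAs themselves were not measured.

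Most imprinted genes had nearly the same level in mutant and control forebrains. At an adjusted p of 0.05 or less in edgeR (quasi-likelihood, Benjamini-Hochberg over all 19684 tested genes), 1 of the 37 tested genes (2.70%) was higher in mutants, Peg10, and 0 were lower. Among all tested genes 4.85% were called, 2.97% higher and 1.87% lower. In this edgeR fit, over all libraries and without a covariate, the share of imprinted genes called was thus not above that of all genes in either direction. Before adjustment, 1 gene was higher and 6 were lower at a p of 0.05 or less (2.70% and 16.2%, against 9.92% and 8.32% of all tested genes). DESeq2 called 1 of the genes higher (2.70%) and 4 lower (10.8%), against 5.09% and 3.7% of all genes, and limma-voom 1 higher and 0 lower, against 3.09% and 1.8%. The share called lower thus lay above that of all genes in DESeq2 and not in limma-voom or in edgeR without a covariate. With a covariate for the run of library numbers, edgeR called 10.8% lower, against 5.04% of all tested genes. The median log2 fold change of the 37 genes was -0.0050 against -0.013 over all tested genes, with 18 genes positive and 19 negative, and 22 of the 37 (59.5%) lay within 0.25 of 0 on the log2 scale, against 63% of all tested genes.

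**Figure D1:**
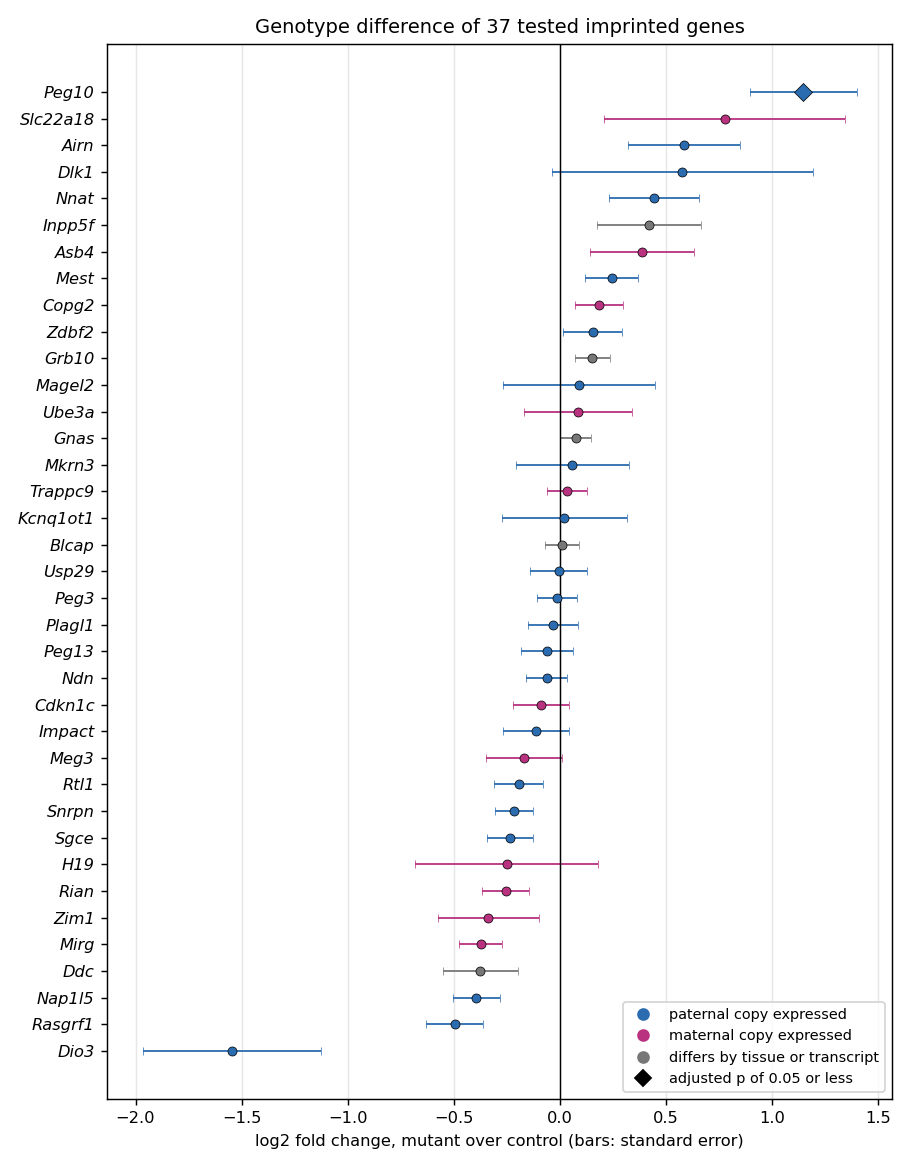
Log2 fold change, mutant over control, of each of the 37 tested imprinted genes (n = 4 control and 3 mutant pools), with bars of 1 standard error from edgeR; colours give the parental copy that each gene is usually expressed from. Peg10, at 1.15, is the gene past the threshold (diamond), and Dio3, at -1.54, is the lowest.

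Peg10, a gene derived from a retrotransposon that is expressed from the paternal chromosome and is needed for the placenta, was the 1 gene of the 37 called higher in edgeR without a covariate. It had 645, 381, 899 and 693 normalized counts in the controls and 1161, 1628 and 1564 in the mutants. The lowest mutant library lay above the highest control library, and library 3 was the lowest control. The mean rose from 654 ± 213 to 1451 ± 253 (SD, n = 4 and 3 pools), a log2 change of 1.15 (SE, the standard error, 0.251) with an adjusted p of 0.0370 in edgeR. Within the runs it was 1.23 (libraries 2, 3 and 5) and 1.01 (libraries 10 to 13). The call was lost when control library 2, control library 11, mutant library 12 or mutant library 13 was left out (adjusted p between 0.0770 and 0.145, edgeR), and over all alternatives the change ran from 0.96 to 1.34. None of its exons overlap another gene, and 0% of its 36-base words occur elsewhere in the transcripts.

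Sgce, which encodes epsilon-sarcoglycan and whose loss on the paternal copy causes myoclonus dystonia, starts next to Peg10 on chromosome 6 (4674350 to 4747207 on the minus strand, against 4747306 to 4760517 on the plus strand for Peg10), and both are paternally expressed. Sgce had 545, 670, 680 and 643 normalized counts in the controls and 512, 560 and 545 in the mutants, so that control library 2 lay within the range of the mutants and the other controls above it. Its log2 change was -0.24 (SE 0.108, adjusted p = 0.295 in edgeR). Per 100 counts of Sgce, the control libraries had 118, 56.8, 132 and 108 counts of Peg10 and the mutant libraries 227, 291 and 287. The other 2 members of this cluster were hardly expressed in these samples. Asb4, a subunit of ubiquitin ligases that is best known from the hypothalamus, had between 19.3 and 28.1 normalized counts in controls and between 27.9 and 34.5 in mutants. Calcr, the calcitonin receptor, had at most 4.39 in controls and reached 13.3 in mutant library 13.

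**Figure D2:**
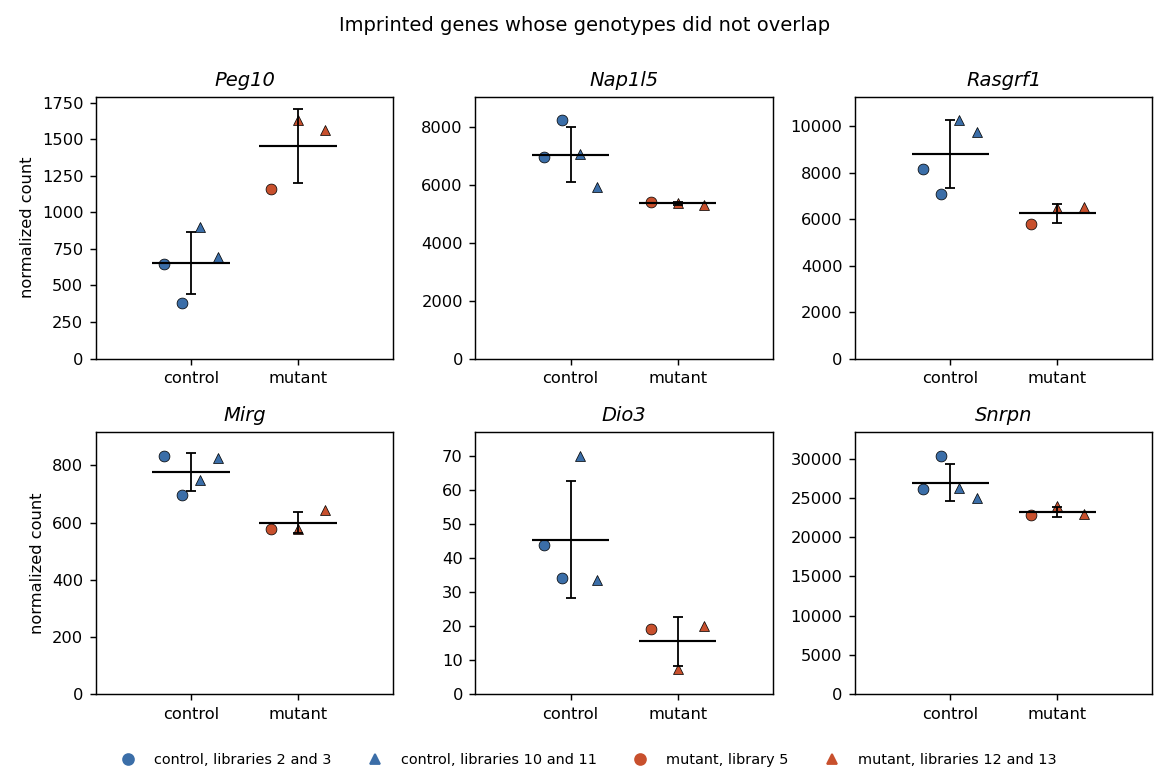
Normalized count (linear axis from 0) in each library for the 6 imprinted genes whose mutant libraries all lay on 1 side of the control libraries; bars give the mean and SD (n = 4 and 3 pools), circles libraries 2, 3 and 5 and triangles libraries 10 to 13. Peg10 is the gene with mutants above controls, and in the other 5 panels the mutants lie below, most narrowly in Snrpn.

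In 6 of the 37 genes (16.2%) the genotypes did not overlap, 1 with mutants above and 5 with mutants below all controls. Among all tested genes 19.7% did not overlap, 10.7% with mutants above and 9% with mutants below. The 5 genes with lower mutant libraries were Nap1l5, Rasgrf1, Mirg, Dio3 and Snrpn. None of them passed the threshold after adjustment in edgeR over all libraries without a covariate. DESeq2 called Nap1l5, Rasgrf1, Mirg and Dio3 lower (adjusted p = 0.0160, 0.00706, 0.0164 and 0.0139). In edgeR, Rasgrf1 and Mirg passed when control library 3 was left out (adjusted p = 0.0206 and 0.0479), and Nap1l5 when control library 11 was left out (0.0474). Since the RNA came from whole forebrain, fewer cells of a type and less RNA per cell cannot be told apart here. Over the same libraries the summed level of 10 markers of MGE-derived interneurons ran from 23121 to 26070 normalized counts in controls and from 14169 to 15545 in mutants, and that of 7 astrocyte markers from 184817 to 277106 and from 308332 to 361550. Most of the astrocyte sum was Slc1a2, with between 138448 and 229945 in controls and between 232566 and 288170 in mutants (adjusted p = 0.200 in edgeR). All 7 astrocyte markers had a positive log2 fold change, 4 of them with mutants above all controls. Of the interneuron markers 6 were called lower and 1 higher, of the astrocyte markers 1, Gfap, was called higher, and no marker of either list was at 0. The part of these cells in the values of the imprinted genes was not tested.

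Nap1l5, a paternally expressed relative of the nucleosome assembly proteins made in neurons, had 6950, 8212, 7063 and 5916 normalized counts in the controls. The mutant libraries lay close together at 5409, 5369 and 5296. The log2 change was -0.39 (SE 0.110, adjusted p = 0.0875 in edgeR), with -0.48 and -0.28 within the runs. Rasgrf1, a calcium-responsive exchange factor for Ras that is paternally expressed in the brain, had 8181, 7079, 10260 and 9744 in controls and 5781, 6471 and 6513 in mutants. Every mutant library lay below every control library, and the controls themselves were higher in libraries 10 and 11. Its log2 change was -0.50 (SE 0.134, adjusted p = 0.0788 in edgeR), with -0.40 and -0.62 within the runs. Snrpn, which encodes a splicing protein and starts the long transcript of the Prader-Willi region, had between 24971 and 30366 in controls and between 22807 and 23954 in mutants, a log2 change of -0.21 (SE 0.0894, adjusted p = 0.248 in edgeR). Of the exon bases of Snrpn 34.1% lie in other annotated genes, among them Snurf, so its counts are shared with theirs by estimate. With a covariate for the run of library numbers, Rasgrf1 and Nap1l5 passed the threshold (adjusted p = 0.00478 and 0.0421 in edgeR) and Snrpn did not (0.150).

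The 6 genes of the Dlk1-Dio3 cluster on chromosome 12 were not called in edgeR over all libraries without a covariate, and 2 of them, Mirg and Dio3, had mutants below all controls. The cluster holds 3 paternally expressed coding genes (Dlk1, Rtl1 and Dio3) and 3 maternally expressed noncoding RNAs (Meg3, Rian and Mirg), of which the noncoding RNAs lie one after the other on the same strand. Among the 6, 5 log2 fold changes were negative and 1, that of Dlk1, was positive. Dio3, the deiodinase that inactivates thyroid hormone, had 43.9, 34.1, 70.0 and 33.5 normalized counts in the controls and 19.2, 7.25 and 19.9 in the mutants. The highest mutant library lay below the lowest control library, and the mean of the mutants came to 34.0% of that of the controls. The log2 change was -1.54 (SE 0.420, adjusted p = 0.0792 in edgeR), the largest in size of the 37 genes, with a standard error exceeded by those of Dlk1, Slc22a18 and H19. Within the runs Dio3 differed by -0.94 (libraries 2, 3 and 5) and -1.83 (libraries 10 to 13), DESeq2 called it lower (adjusted p = 0.0139), and the covariate for the run left it at an adjusted p of 0.0524 in edgeR.

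Meg3, a long noncoding RNA and the most abundant of the 39 by count, had 126768, 108859, 84310 and 99305 normalized counts in the controls and 118841, 76302 and 84392 in the mutants. Both genotypes were higher in the libraries of low number, and the genotypes overlapped. Rian, which carries a series of small nucleolar RNAs, had 20158, 23415, 25274 and 24508 in controls and 17347, 19848 and 21502 in mutants. Mirg had 833, 698, 749 and 827 in controls and 579, 578 and 643 in mutants, below every control library. The log2 fold changes of Meg3, Rian and Mirg were -0.17 (SE 0.179), -0.25 (0.110) and -0.37 (0.102), with adjusted p-values of 0.704, 0.267 and 0.0792 in edgeR. Within libraries 2, 3 and 5 their changes were 0.017, -0.32 and -0.40, and among libraries 10 to 13 -0.19, -0.27 and -0.37. With the run as a covariate, Rian and Mirg passed the threshold (adjusted p = 0.0402 and 0.0314 in edgeR), and DESeq2 called Mirg but not Rian. The ratio of Rian to Meg3 ran from 14.6 counts per 100 in mutant library 5 to 30.0 in control library 10. That of Mirg to Rian lay between 2.91 and 3.38 per 100 in all libraries but control library 2, where it was 4.14.

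Dlk1, a Notch-like protein of progenitors and endocrine cells, varied most of the cluster. It had 95.4 and 47.2 normalized counts in controls 2 and 3, and 380 and 212 in control libraries 10 and 11. Mutant library 5 had 143 and mutant libraries 12 and 13 had 297 and 384, so the libraries of high number stood above those of low number in both genotypes. The log2 fold change between genotypes was 0.58 with a standard error of 0.615 (adjusted p = 0.708 in edgeR). It was 1.21 without control library 10 and 0.26 without mutant library 13, and was called in neither case. Rtl1, a retrotransposon-derived gene transcribed against the noncoding RNAs, had between 368 and 442 in controls and between 321 and 380 in mutants (log2 fold change -0.19, SE 0.116, adjusted p = 0.447 in edgeR).

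**Figure D3:**
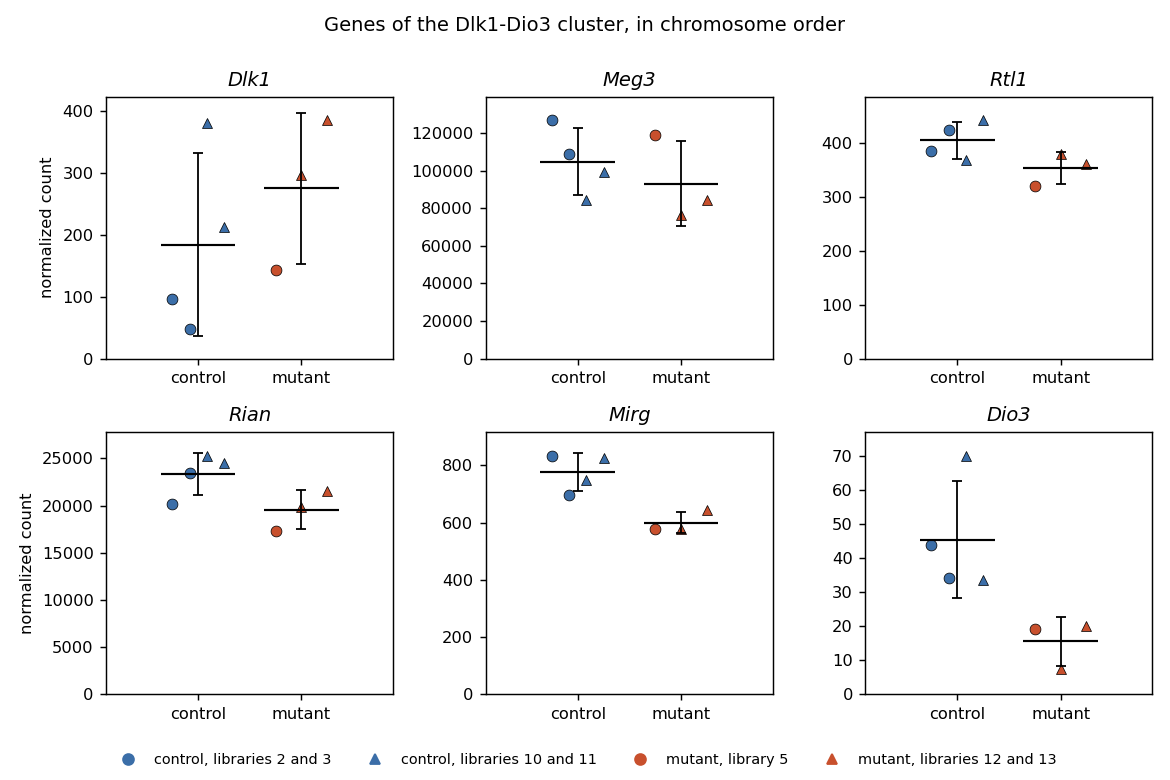
Normalized count (linear axis from 0) of the 6 genes of the Dlk1-Dio3 cluster in each library, in their order along chromosome 12, with mean and SD (n = 4 and 3 pools). Mirg and Dio3 have mutants below all controls, whereas Dlk1 and Meg3 follow the library numbers (circles 2, 3 and 5, triangles 10 to 13).

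In the Prader-Willi and Angelman cluster on chromosome 7, 0 of 5 genes passed the threshold (edgeR), log2 fold changes ran from -0.21 for Snrpn to 0.090 for Magel2, and 1, Snrpn, had an unadjusted p of 0.05 or less. Neither DESeq2 nor limma-voom called any of them. Ndn, which encodes the neuronal survival factor necdin, had between 6587 and 8341 normalized counts in controls and between 7137 and 7394 in mutants. Ube3a, the ubiquitin ligase of Angelman syndrome that neurons express from the maternal copy, had 2984 and 3311 in control libraries 2 and 3, 5447 and 4919 in control libraries 10 and 11, 3026 in mutant library 5, and 5288 and 4957 in mutant libraries 12 and 13. Its level thus followed the library number in both genotypes, and 27.3% of its exon bases overlap other genes, among them Snhg14 on the opposite strand. Magel2, a partner of ubiquitin ligases in endosomal recycling, and Mkrn3, a ring finger protein linked to the timing of puberty, ran from 51.8 to 144 and from 227 to 511 in controls and from 69.3 to 95.8 and from 325 to 429 in mutants.

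In the Peg3 cluster, also on chromosome 7, the levels of Peg3 and Usp29 were nearly equal in both genotypes. Peg3, a zinc finger gene with a part in maternal behaviour, had 10701, 8532, 10108 and 9932 normalized counts in controls and 9977, 9901 and 9335 in mutants, a log2 change of -0.012 (SE 0.0939, adjusted p = 0.970 in edgeR). Usp29, a ubiquitin protease gene that starts from the same stretch as Peg3, had between 922 and 1356 in controls and between 1048 and 1238 in mutants (-0.0050, SE 0.135, adjusted p = 0.992 in edgeR). Each library had between 10.5 and 13.4 counts of Usp29 per 100 of Peg3. Zim1, a maternally expressed zinc finger gene nearby, had a log2 change of -0.34 (SE 0.238, adjusted p = 0.536 in edgeR).

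Among the imprinted regulators of growth, none was called. Grb10, an adaptor that dampens insulin and IGF signalling and is paternally expressed in neurons, had between 1340 and 1571 normalized counts in controls and between 1527 and 1691 in mutants (log2 fold change 0.15, SE 0.0820, adjusted p = 0.383 in edgeR). Plagl1, a zinc finger factor that regulates other imprinted genes, and Cdkn1c, the cell cycle inhibitor p57, had log2 fold changes of -0.033 and -0.088, and 30.7% of the exon bases of Cdkn1c overlap another gene. H19, a noncoding RNA of the Igf2 locus, had between 18.1 and 69.1 in controls and between 27.9 and 53.6 in mutants, and its change was 0.79 in the run of low numbers and -0.84 in that of high numbers. Gnas, which encodes the stimulatory G protein alpha subunit and overlaps other genes in 22.0% of its exon bases, differed by 0.076 (SE 0.0735, adjusted p = 0.674 in edgeR), with between 40211 and 42538 in controls and between 41935 and 46117 in mutants. Phlda2, a growth-restricting gene of the placenta, had at most 1.10 in controls and 2.87 in mutants and was at or under the floor of 3 counts in every library.

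Among the others, Nnat, a membrane proteolipid of developing neurons, had 6147, 4950, 5418 and 3302 normalized counts in controls and 8329, 5476 and 6405 in mutants. The genotypes overlapped at 1 mutant library, and the log2 fold change was 0.44 (SE 0.212, adjusted p = 0.320 in edgeR). Blcap, the gene in which Nnat lies, had a log2 fold change of 0.010 (SE 0.0806). Inpp5f, a phosphoinositide phosphatase gene, had 5827 and 6229 in control libraries 2 and 3, 3772 and 3362 in control libraries 10 and 11, 7946 in mutant library 5, and 4795 and 6519 in mutant libraries 12 and 13. Within each run the mutants lay above the controls, by 0.40 and 0.65, and with the run as a covariate the gene was called higher (0.56, adjusted p = 0.0177 in edgeR), whereas without it the change was 0.42 (adjusted p = 0.435). Mest and Copg2, which share a locus on chromosome 6, had changes of 0.24 and 0.18, and 23.1% and 17.8% of their exon bases overlap each other's. Airn, the noncoding RNA that silences Igf2r, had between 28.1 and 53.9 in controls and between 48.9 and 73.9 in mutants (0.59, SE 0.263, adjusted p = 0.284 in edgeR). Slc22a18, a transporter gene of the Kcnq1ot1 cluster, had between 8.03 and 14.4 in controls and between 4.79 and 32.1 in mutants. Zdbf2, the vesicle trafficking gene Trappc9, the noncoding RNA Peg13 within it, and Impact, a regulator of translation, had log2 fold changes between -0.11 and 0.16, none called.

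Ddc makes dopamine and serotonin from their precursors, and Th, the enzyme just before it in dopamine synthesis and itself imprinted in the placenta, was counted in the list of further imprinted genes. Ddc had 307, 374, 295 and 253 normalized counts in controls and 291, 213 and 205 in mutants (log2 fold change -0.38, SE 0.177, adjusted p = 0.310 in edgeR). Th had 42.8, 61.3, 51.8 and 62.0 in controls and 292, 495 and 379 in mutants, a log2 change of 2.83 (SE 0.212, adjusted p = 0.000440 in edgeR). The 2 genes of the pathway thus stood at 13.9 to 24.5 counts of Th per 100 of Ddc in controls and at 100.3 to 232 in mutants. In a list of 9 markers of monoamine neurons, 5 were tested and 1, Th, was called, and Fev had 3 counts or fewer in every library. The summed level of the list ran from 287 to 429 in controls and from 692 to 920 in mutants, and without Th from 245 to 377 and from 399 to 489.

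Both paternally and maternally expressed genes were found on either side of 0. Of the 21 genes usually expressed from the paternal copy, all tested, 9 had a positive and 12 a negative log2 fold change, with a median of -0.012 and 1 called higher in edgeR, and DESeq2 called 3 of them lower (Nap1l5, Rasgrf1 and Dio3). Of the 13 maternally expressed genes, 11 were tested, 5 positive and 6 negative, with a median of -0.088. In edgeR over all libraries without a covariate 0 of these were called, and DESeq2 called 1 of them lower (Mirg). With the run as a covariate, edgeR called Peg10 higher and Rasgrf1 and Nap1l5 lower among the paternally expressed genes. Among the maternally expressed genes it called Mirg and Rian lower. The remaining 5 differ in their parental copy by tissue (Grb10 and Ddc) or by transcript (Gnas, Inpp5f and Blcap), and of these Inpp5f was called higher with the run as a covariate and none without it. Parental copies are as generally described for these genes in the mouse, and these data do not test them.

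Of 43 further imprinted genes listed from general knowledge, 42 were found and 38 tested, and 2 passed the threshold in edgeR, Th higher and Slc22a3 lower. Slc22a3, a transporter of monoamines in the Airn and Igf2r cluster, had 194, 217, 142 and 131 normalized counts in controls and 76.6, 84.9 and 99.4 in mutants (log2 fold change -0.97, SE 0.215, adjusted p = 0.0389 in edgeR), a call that was lost under limma-voom and on leaving out any library but control library 11. Htr2a, the serotonin receptor 2A, had between 334 and 561 in controls and between 588 and 949 in mutants (0.87, adjusted p = 0.0550 in edgeR), and it was called by DESeq2 (adjusted p = 0.00179), with the run as a covariate (0.00228 in edgeR) and in 5 other alternatives (0.0355 to 0.0492 in edgeR). Zrsr1, a splicing gene, lay in narrow ranges, between 1370 and 1426 in controls and between 1181 and 1189 in mutants, and its change of -0.25 had an adjusted p of 0.0718 in edgeR, 0.0186 in DESeq2 and 0.0277 in edgeR with the run as a covariate. The median log2 fold change of the 38 genes was -0.027, with 17 positive and 21 negative. Igf2, the growth factor of the H19 locus, had a change of -0.14.

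Of 30 regulators of imprints, among them DNA methyltransferases, TET enzymes, heterochromatin proteins, cohesin subunits and Ctcf, 28 were tested and 0 were called in edgeR, DESeq2 or limma-voom, with 4 at an unadjusted p of 0.05 or less. Of the 28, 10 had a positive and 18 a negative log2 fold change, and 4 had mutants above and 2 mutants below all controls. The 2 were Setdb1 and Ctcf, with log2 changes of -0.20 and -0.15 (adjusted p = 0.264 and 0.341 in edgeR). Setdb1 had between 1769 and 1982 normalized counts in controls and between 1501 and 1765 in mutants. Dnmt1, which copies methylation to the new strand, had a log2 change of -0.030 and Trim28 one of 0.00020. Zfp57 had 588, 563, 422 and 443 normalized counts in controls and 452, 317 and 320 in mutants. Within each run the mutants lay below the controls, by -0.35 and -0.44, while over all libraries the genotypes overlapped (log2 fold change -0.47, SE 0.179, adjusted p = 0.203 in edgeR). With the run as a covariate Zfp57 was called lower (-0.40, adjusted p = 0.0141 in edgeR).

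**Figure D4:**
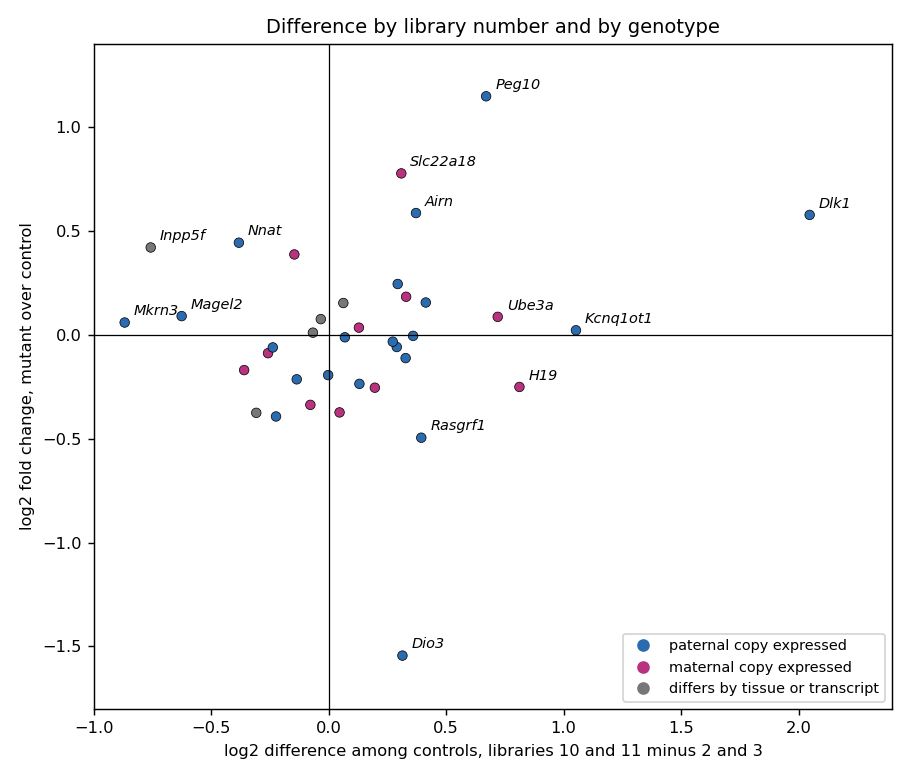
Each of the 37 tested imprinted genes by the log2 difference between control libraries 10 and 11 and control libraries 2 and 3 (horizontal axis) and by the log2 fold change of mutant over control (vertical axis), coloured by the parental copy usually expressed. Dlk1 and Kcnq1ot1 lie far to the right at 2.05 and 1.05, whereas Peg10 and Dio3 lie far from 0 on the vertical axis.

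Several imprinted genes differed more between runs of library numbers than between genotypes. In 20 of the 37 genes (54.1%) the log2 difference between control libraries 10 and 11 and control libraries 2 and 3 was larger in size than the genotype difference, as in 57.4% of all tested genes. The median size of the difference between runs was 0.31 in the imprinted genes and 0.22 over all tested genes. Kcnq1ot1, the noncoding RNA that silences its cluster on chromosome 7, had 1141 and 1133 normalized counts in controls 2 and 3, 2313 and 2407 in control libraries 10 and 11, 1418 in mutant library 5, and 1993 and 1916 in mutant libraries 12 and 13. In 12 of the 37 genes (32.4%) libraries 10 to 13 lay above libraries 2, 3 and 5 within each genotype, against 19.1% of all tested genes, and in 5 (13.5%) they lay below, against 19.3%. With the run as a covariate 2 imprinted genes were called higher (Peg10 and Inpp5f) and 4 lower (Rasgrf1, Mirg, Rian and Nap1l5), or 5.41% and 10.8% of 37, where 6.16% and 5.04% of all tested genes were called.

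Levels of the genes can be compared only per length, so normalized counts were divided by kilobases of annotated exon. On that scale Snrpn was highest in controls, at 12480 ± 1091 (SD, n = 4 pools) per kilobase, followed by Meg3 (5794 ± 983), Nap1l5 (3815 ± 509), Gnas (3729 ± 92.7), Nnat (2709 ± 660) and Ndn (2058 ± 214). The control libraries of Snrpn and Meg3 did not overlap, nor did those of Meg3 and Nap1l5 or of Gnas and Nnat, whereas Nap1l5 and Gnas overlapped, as did Nnat and Ndn. Lowest of the 37 tested genes were Airn (11.4 ± 2.98), Asb4 (6.19 ± 1.01) and Slc22a18 (6.10 ± 1.64), of which the last pair overlapped. Peg10 stood at rank 22 of 37 in controls and 17 in mutants, and Dio3 at rank 30 and 37. With the longest annotated transcript as the length, Gnas moved from rank 4 to rank 2 and Airn from rank 35 to rank 30, and 9 of the 10 highest genes stayed among the 10 highest.

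**Figure D5:**
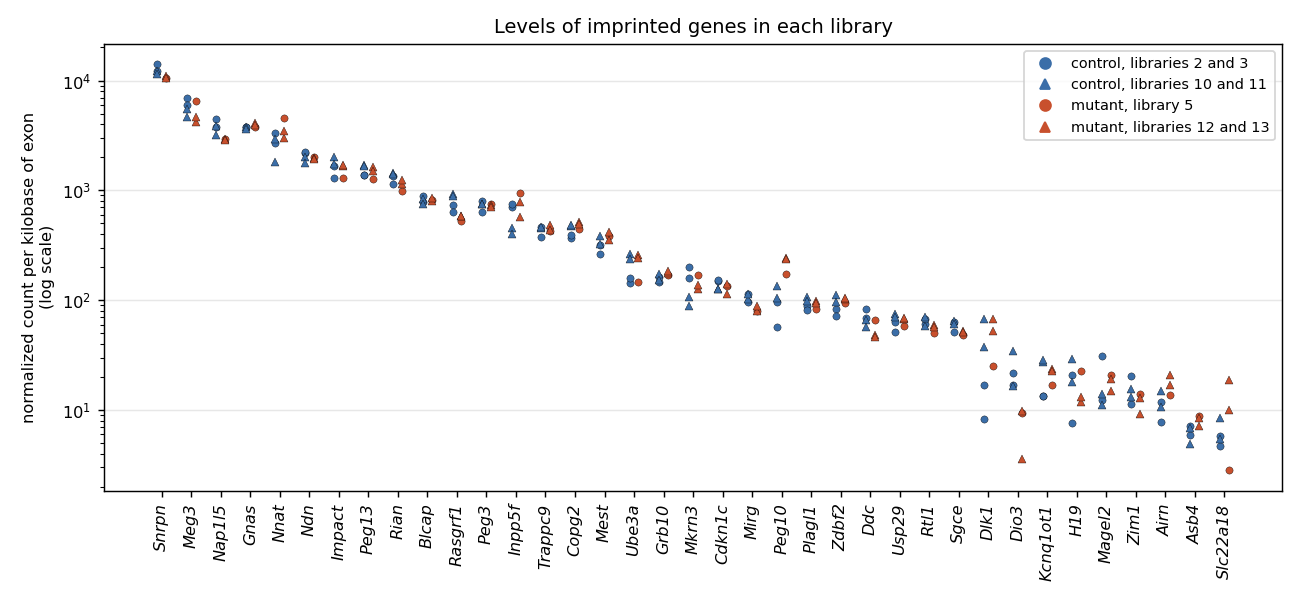
Normalized count per kilobase of annotated exon (log axis) of the 37 tested imprinted genes in each library, ordered by the control mean. Levels run from 12480 per kilobase for Snrpn to 6.10 for Slc22a18, and the 2 genotypes lie apart in few genes, such as Peg10 and Dio3.

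Several of these genes are best known from the hypothalamus, which a whole forebrain may hold to a varying extent. In a list of 14 hypothalamic markers, 5 were expressed highly enough to be tested, Hcrt and Hmx2 had 3 counts or fewer in every library, and 1, Gal, was called higher in mutants. The summed level of the list ran from 112 to 204 normalized counts in controls and from 205 to 354 in mutants, and 4 of the 5 tested markers had a positive log2 fold change. The ranges nearly met, at 204.0 in control library 2 and 204.5 in mutant library 13. Gal, with between 5.76 and 8.77 in controls and between 54.9 and 61.3 in mutants, was part of the sum. The sum without Gal was not tested. Asb4, Dlk1 and Magel2 had log2 fold changes of 0.39, 0.58 and 0.090, none called, and the part of hypothalamic tissue in them was not tested. Markers of striatal projection neurons (7 of 7) and GABAergic neurons (7 of 7) were all expressed highly enough to be tested. Of the striatal markers 1 was called higher (Penk) and all 7 had a positive log2 fold change (median 0.36), and of the GABAergic markers 0 were called in edgeR, with 2 at an unadjusted p of 0.05 or less. Of the other lists, 0 of 7 choroid plexus, 6 endothelial, 8 meningeal and 4 tested thalamic markers were called in edgeR, with 1, 4, 3 and 1 at an unadjusted p of 0.05 or less. All 7 choroid plexus markers had a negative log2 fold change (median -0.60) and all 6 endothelial markers a positive one (median 0.32). Of the meningeal markers 7 were positive and 1 negative, and of the thalamic markers 1 and 3.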

How the data were processed

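Whole forebrain RNA was measured in 4 control and 3 mutant pools. The authors cleaned single-end 36 bp reads (cutadapt 1.9.1), aligned them with Bowtie2 2.2.9 to the GRCm38 transcriptome of Ensembl release 84 and deposited RSEM 1.2.31 expected counts per gene, with no normalization. RSEM shares reads between genes that match them equally; the strand setting is not given in the sources used here. The authors also deposited their DESeq2 comparison (mean normalized signal, log2 fold changes with standard errors, a Wald score, p-values); only its gene names were used. Their annotation gave positions, exon overlaps and lengths.

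Expected counts were rounded, and genes reaching 10 counts in 3 or more libraries entered edgeR 4.0.16 with TMM factors (quasi-likelihood, genotype as the factor, R 4.3.3), with Benjamini-Hochberg adjustment and a threshold of 0.05. Standard errors were derived from the fold change and its F statistic. Within-run differences are of mean log2 CPM (prior count 2). Alternatives were DESeq2 1.42.0, limma-voom (limma 3.58.1), other normalizations and filters, a run covariate and each library left out. Replicates differed beyond sampling noise (chi-square per degree of freedom from 10.2 to 73.3). Shared 36-base words were counted in GENCODE M21 transcripts (GRCm38), on both strands. Scripts were tested on simulated data. All 39 genes are described, with Lhx6, genes of the 2 further lists that passed the test and markers where a result touches them. Htr2a, Zrsr1, Zfp57, Dnmt1, Trim28, Setdb1, Ctcf and Igf2 were added after their values were seen. Members and lists were chosen with earlier results of these data known. The list of cortical excitatory markers is not reported here.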

Additional observations from a re-analysis of the deposited data

Results flagged for a closer look

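In 2 of the 37 tested imprinted genes 1 control library stood far from the other 3 (a gap to the nearest of 0.854 and 0.877 of the whole range), and chance gives about 1 in 20 such groups. Magel2 had 144 normalized counts in control library 2, where the next highest control library had 65.2 and the lowest 51.8. Trappc9, a vesicle trafficking gene, had 2405 normalized counts in control library 3, where the other control libraries lay between 2883 and 2950. Neither gene was called between genotypes with or without that library.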

How the results depend on the processing

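DESeq2 called 4 imprinted genes lower (Nap1l5, Rasgrf1, Mirg and Dio3), 4 of the further imprinted genes and 1731 genes in all, against 0, 2 and 954 in edgeR, and limma-voom called 1 of the further imprinted genes. With a covariate for the run 2 imprinted genes were called higher and 4 lower, with 5 further imprinted genes, 1 regulator and 2205 genes in all. Leaving out 1 library at a time gave 0 to 1 imprinted genes higher and 0 to 2 lower, 1 to 3 further imprinted genes and 302 to 971 genes in all, with a median log2 fold change of the imprinted genes between -0.052 and 0.030. The cause of these changes was not tested. Upper-quartile normalization turned the sign of Peg3 (0.013) and Usp29 (0.020), limma-voom that of Usp29 (0.0053), and the covariate those of Ube3a (-0.033) and Kcnq1ot1 (-0.036). Leaving out 1 library at a time turned the sign of Blcap (-0.026 to 0.056), H19 (-0.58 to 0.039), Impact (-0.21 to 0.017), Kcnq1ot1 (-0.14 to 0.21), Magel2 (-0.067 to 0.54), Mkrn3 (-0.10 to 0.29), Peg13 (-0.14 to 0.052), Peg3 (-0.074 to 0.032), Plagl1 (-0.10 to 0.043), Trappc9 (-0.031 to 0.083), Ube3a (-0.060 to 0.31) and Usp29 (-0.10 to 0.079), with the lowest and highest log2 fold change in brackets. No reversed gene was called in either direction. Depth limits Calcr, Phlda2, Dio3, Asb4 and Slc22a18 most. No paired analysis was possible because the columns carry library numbers that cannot be tied to the replicate numbers of the titles.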
